A study of Mus musculus with 6 samples.

Results

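The data concern 6 long non-coding RNA (lncRNA) probes, n418283, n418309, n419646, FR331566, FR251112 and FR375498, of 91188 probes on a mouse lncRNA and mRNA microarray. The 6 were chosen by their measured signals, which were lower after high-fat diet than after normal diet in these same arrays, so the diet difference is given below as a description and no test of it is read. All samples were aortas of male mice on a C57BL/6 background that were homozygous for loss of apolipoprotein E, written ApoE(-/-), a lipoprotein protein whose loss raises plasma cholesterol and leads to atherosclerosis. In 1 group 3 mice had normal diet, and in the other 3 mice had a high-fat diet with 20% fat and 2.5% cholesterol. Both diets were given for 8 weeks. Each mouse gave 1 array, and both groups shared the ApoE(-/-) genotype, so no wild-type aorta entered the comparison. Normal diet replicates 1 and 3 were hybridised on 1 glass slide, here slide 1, and normal diet replicate 2 with all 3 high-fat arrays on another, here slide 2.

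lncRNAs are transcripts that carry little or no protein-coding sequence. Some act in the nucleus by guiding chromatin-modifying proteins or transcription factors to genes, and others bind proteins or microRNAs in the cytoplasm. For many no function is known. In the artery wall, lncRNAs have been tied to the growth of smooth muscle cells, to endothelial function and to inflammation. The 6 names are entries of non-coding RNA catalogues, and no function of any of them is stated here. The scanner output gave each of these probes as unmapped and its own identifier in place of a gene, and no genome was used here, so where the transcripts lie is not given.

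The probe sequences show where the 6 overlap, but not whether probes without overlap read separate RNAs. Probes n418283 and n418309 were near copies of each other. Bases 2 to 60 of n418283 aligned with bases 1 to 59 of n418309, and 56 of these 59 bases were identical. The 3 substitutions, counted from the 5′ end of n418283, were C6T, T15C and G37A, and they stand in capitals here.
n418283: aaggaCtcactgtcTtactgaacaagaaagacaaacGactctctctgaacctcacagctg
n418309: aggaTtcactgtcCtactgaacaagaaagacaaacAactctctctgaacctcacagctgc
With so few differences, 1 RNA read by both probes and 2 RNAs that change alike cannot be told apart here.

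Probe FR375498 shared sequence with a probe outside the 6, A_55_P2072458, for which no gene name was at hand. Bases 20 to 60 of FR375498 were bases 1 to 41 of A_55_P2072458 on the same strand, with 41 of 41 identical, and this stretch stands in capitals here because it lets the same RNA be read by a second probe.
FR375498: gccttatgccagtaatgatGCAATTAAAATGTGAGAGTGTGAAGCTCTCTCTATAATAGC
A_55_P2072458: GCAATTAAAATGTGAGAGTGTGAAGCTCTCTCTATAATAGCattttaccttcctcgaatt
For the other 3 probes no overlap was found with each other or with any other probe of the array. An overlap meant at least 25 aligned bases with at most 3 mismatches. The search started from shared runs of 14 bases, so an overlap without such a run would be missed. They are shown with the run CTCTCT in capitals where they hold it, since this run recurs among the 6.
n419646: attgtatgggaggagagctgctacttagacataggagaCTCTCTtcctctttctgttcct
FR331566: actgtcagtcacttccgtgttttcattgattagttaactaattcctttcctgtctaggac
FR251112: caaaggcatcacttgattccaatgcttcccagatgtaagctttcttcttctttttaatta
No member matched a RefSeq promoter window or microRNA entry (GRCm38.p6 tables) over any of the 3 stretches of 25 bases that were searched per probe. These entries do not cover whole lncRNA transcripts, so the lack of a match does not say what the probes read.

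Every probe of the 6 was detected on all 6 arrays. Between 62.6% and 76.0% of all probes were detected on a single array, and the share detected on all 6 is not given. Detected means that a share of at least 0.5 of a probe's spots passed. To pass, a spot was no outlier and its signal was positive, significant and well above background. Tests were run over the 64467 probes, 70.7% of the total, that passed this detection on each of the 3 arrays of 1 diet or both. The arrays were bulk RNA, so fewer cells of a type and less RNA per cell cannot be told apart. Markers of the aorta and of other cell types were not checked, because no table that pairs probes with genes was used here.

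The 3 catalogue entries with names in n are given first. On the quantile-normalized log2 scale, n418283 read 8.03, 7.23 and 8.39 on normal diet replicates 1 to 3 and 6.59, 5.21 and 5.57 on high-fat replicates 1 to 3. The means were 7.88 ± 0.59 and 5.79 ± 0.71 (SD, n = 3 each), a difference of -2.09 (SE 0.43) or 4.26-fold lower on high-fat diet. The lowest normal array stood 0.64 above the highest high-fat array, which was replicate 1.

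Its near copy n418309 gave almost the same course. Its values were 7.90, 7.18 and 8.27 on normal diet and 6.36, 5.29 and 5.70 on high-fat diet, with means of 7.78 ± 0.55 and 5.79 ± 0.54 and a difference of -1.99 (SE 0.36), or 3.99-fold lower. Array for array, the 2 probes ranked the 6 aortas in the same order.

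For n419646, the signals were 7.25, 6.23 and 7.77 on normal diet and 5.42, 4.99 and 4.93 on high-fat diet. The difference of the means was -1.97 (SE 0.38), or 3.92-fold lower. Its high-fat arrays lay closer together (SD 0.27) than its normal arrays (SD 0.78) and replicate 2 was again the lowest on normal diet.

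The diets came closest to meeting in FR331566. It read 7.46, 6.26 and 8.01 on normal diet and 6.05, 5.24 and 4.85 on high-fat diet, a difference of -1.86 (SE 0.49), or 3.64-fold lower. Normal diet replicate 2 and high-fat replicate 1, both on slide 2, were 0.21 apart.

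In FR251112 the high-fat arrays were level with each other, and the gap between the nearest arrays of the 2 diets was the widest of the 6 while the difference of the means was the smallest. The values were 5.82, 4.97 and 5.96 on normal diet and 3.78, 3.74 and 3.83 on high-fat diet, where the SD was 0.05. The difference was -1.80 (SE 0.27), or 3.48-fold lower, and the gap between the groups was 1.14. Before normalization its processed signals on high-fat replicates 1 to 3 were 13.1, 17.3 and 15.2, where replicate 1 was the lowest.

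The signals of FR375498 came close to background on high-fat diet. They were 5.35, 3.92 and 5.74 on normal diet and 3.43, 2.60 and 3.03 on high-fat diet, a difference of -1.98 (SE 0.48), or 3.95-fold lower, with a gap of 0.48 between the groups. On each high-fat array 1 of its 2 spots was not well above background, whereas all spots of the other 5 probes were.

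**Figure D1:**
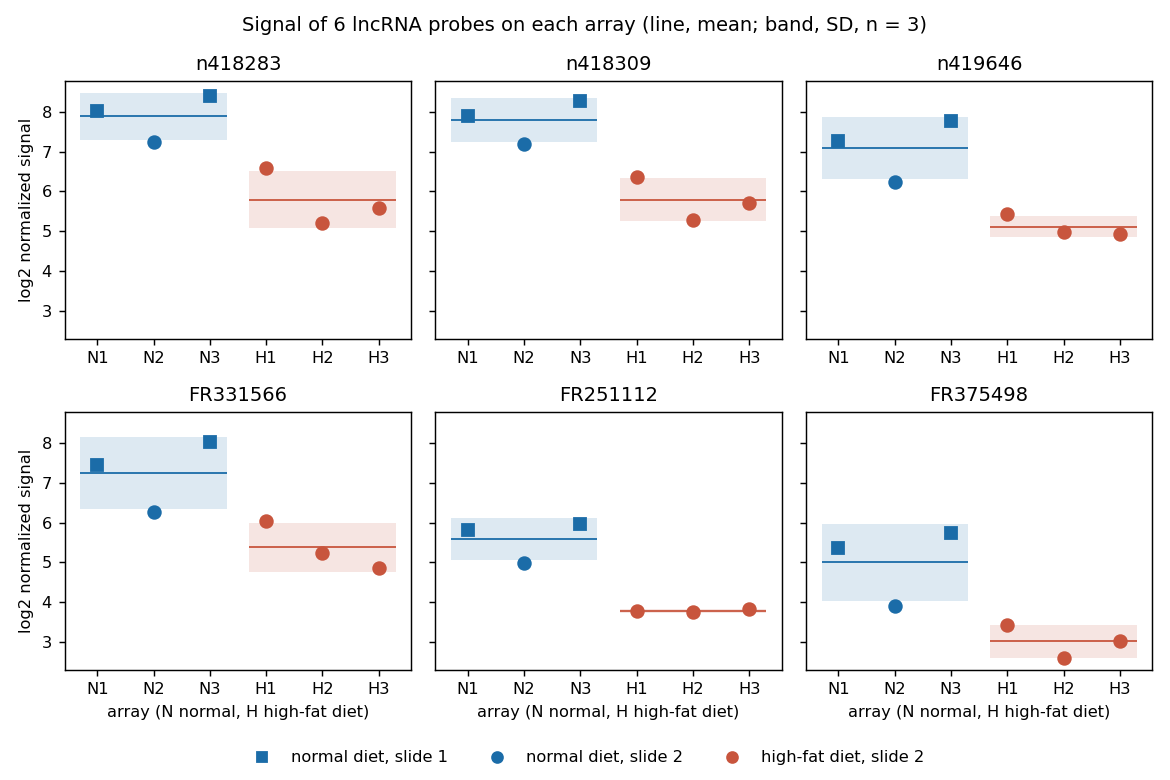
Quantile-normalized log2 signal (vertical axis) of each of the 6 probes on each array (horizontal axis; N normal diet, H high-fat diet). Squares are arrays of slide 1 and circles arrays of slide 2, lines are group means and bands the SD (n = 3). In every panel the high-fat arrays lie below the normal arrays, and the normal array of slide 2 is the lowest of its group.

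In all 6 probes the diets did not overlap, which was true of 10.4% of the probes tested in the same direction. All 6 also met the study's criteria of at least 2-fold and an unadjusted p of at most 0.05 in limma, as 0.83% of the probes tested did in the lower direction, and at least 2-fold lower alone held for 0.951%. Because the 6 were picked on this contrast, nothing follows from these counts. After Benjamini-Hochberg adjustment over all probes tested, no member passed at 0.05 (limma, adjusted p = 0.338 for each), and 1 probe of all tested did. Without normal diet replicate 2, when each slide held 1 diet and slide and diet cannot be told apart, limma gave the members adjusted p from 0.00205 to 0.0192 and passed 8655 probes. Without any other single array the members' adjusted p lay between 0.457 and 0.725. The median difference over the 6 was -1.98, against 0.01 over all probes tested. Ordered by the size of the fall, the members stood between places 16 and 36 of 64467, and within slide 2 between places 82 (n418283) and 948 (FR331566).

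Each probe was printed as 2 spots per array, which gives a technical check inside each array. Of the 72 spots none was flagged as an outlier and 69 were well above background. The 2 spots of a pair differed by a median of 0.30 on the log2 scale. Per probe this median ran from 0.14 in FR331566 to 0.57 in FR375498. The widest pair was FR375498 on high-fat replicate 2, whose processed signals of 11.2 and 4.21 were 1.41 apart. Taken singly and without normalization, either spot of each probe put all normal arrays above all high-fat arrays. The differences of the means ran from -2.05 to -1.22. These spots make up the values on which the probes were chosen, so this repeats that choice in part. The share of all probes for which single spots do so is not given. The narrowest gaps were 0.02 for 1 spot of FR375498 and 0.04 for 1 spot of FR331566.

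**Figure D2:**
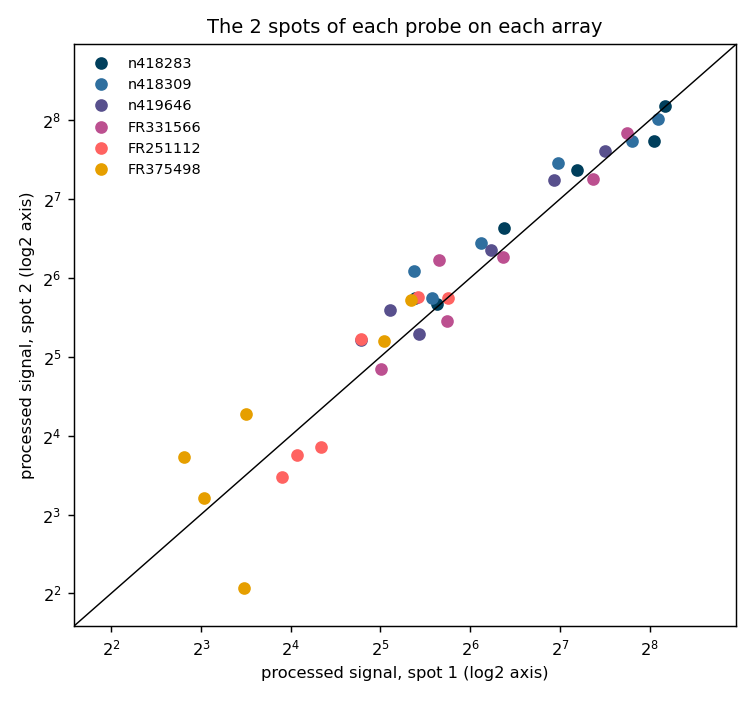
Processed signal of spot 1 (horizontal axis) against spot 2 (vertical axis) of each probe on each array, both on log2 axes, 1 point per probe and array, with the line of equal signal. Points lie near the line at high signal, and the pairs farthest from it are those of FR375498, up to 1.41 apart on the log2 scale.

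The normal arrays of these probes split by slide. In 6 of 6, both normal arrays of slide 1 were above the normal array of slide 2, which was in turn above every high-fat array. This order held for 6.35% of the probes tested and for 361 of the 529 other probes called lower (68.2%). The mean of the slide 1 normal arrays exceeded normal diet replicate 2 by 0.90 in n418309, 0.92 in FR251112, 0.98 in n418283, 1.28 in n419646, 1.48 in FR331566 and 1.63 in FR375498. Over all probes tested the median of this difference was 0.04, with 9 in 10 of them from -1.36 to 0.96, and over the other probes called lower it was 0.76. These normal arrays were part of the contrast that chose the probes. Negative control spots read 31.6 and 32.2 net on the arrays of slide 1 and 13.1 to 13.8 on those of slide 2. The part of the slide in the members' levels was not tested, and within the normal diet slide and mouse cannot be told apart.

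Within slide 2, where 1 normal aorta meets 3 high-fat aortas, all 6 differences were below 0 and all were smaller. With the slide as a block in the limma fit they were -1.44 (SE 0.51) for n418283, -1.39 (SE 0.41) for n418309, -1.19 (SE 0.19) for FR251112, -1.12 (SE 0.30) for n419646, -0.90 (SE 0.35) for FR375498 and -0.88 (SE 0.47) for FR331566. Their median was -1.15, against -0.00025 over all probes tested. The first 4 stayed at least 2-fold lower, as did 0.771% of all probes tested, and FR375498 and FR331566 came to 1.86-fold and 1.84-fold. The same 4 met both criteria with the slide block, and 0.411% of all probes tested did so in the lower direction. Between 45.2% (FR375498) and 69.8% (n418309) of a member's log2 difference was left inside slide 2.

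**Figure D3:**
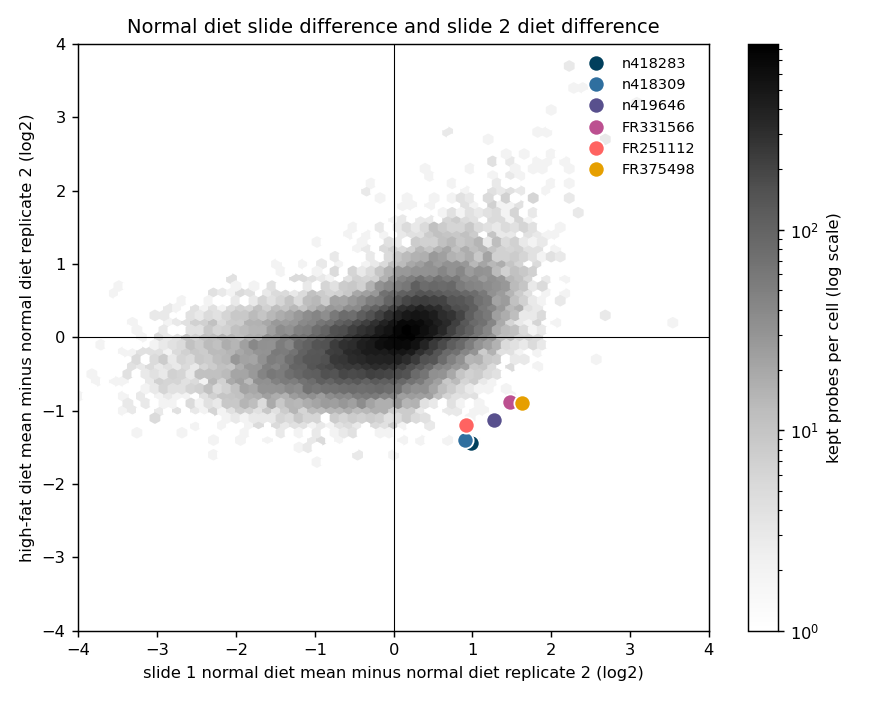
Mean of the slide 1 normal arrays minus normal diet replicate 2 (horizontal axis, log2) against the mean of the high-fat arrays minus normal diet replicate 2 (vertical axis, log2) for the 64467 probes tested, with hexagons shaded by number on a log scale and the 6 probes as coloured points. Both axes share normal diet replicate 2. The members lie to the right (0.90 to 1.63) and below 0 (-1.44 to -0.88).

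The differences also depended on the background correction. With normexp correction and an offset of 50, which pulls dim signals together, the differences were -1.36 in n418283, -1.22 in n418309, -1.08 in FR331566, -1.07 in n419646, -0.62 in FR251112 and -0.47 in FR375498. FR251112 and FR375498 fell short of 2-fold. The other 4 remained at least 2-fold lower (0.225% of all probes tested) and met both criteria (0.18% of all probes tested). Scaling to the 75th percentile or taking the authors' own log2 values left medians of -1.94 and -1.99.

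**Figure D4:**
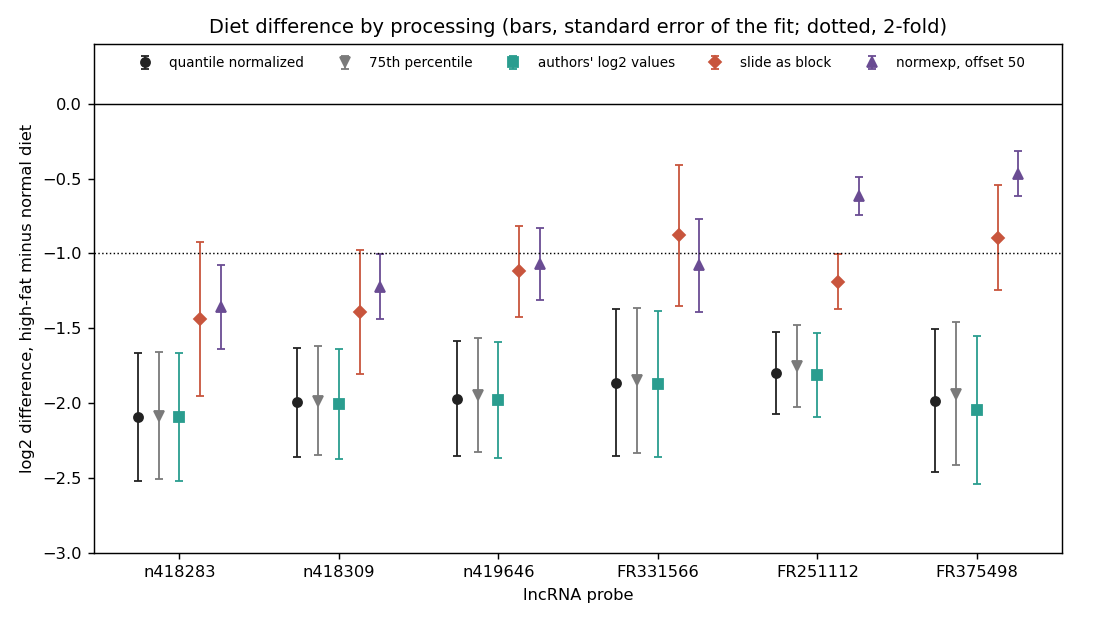
Log2 difference, high-fat minus normal diet (vertical axis), of each of the 6 probes (horizontal axis) under 5 ways of processing, with bars for the standard error of the limma fit and a dotted line at 2-fold lower. All points lie below 0. With slide as a block they run from -1.44 to -0.88 and with normexp correction from -1.36 to -0.47.

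The 6 probes followed much the same course over the arrays. With each probe centred on its own mean, the average course was 1.57 on normal diet replicate 3, 1.18 on replicate 1 and 0.18 on replicate 2, then -0.52, -1.28 and -1.13 on high-fat replicates 1 to 3. In 5 of the 6 the arrays took the order normal 3, normal 1, normal 2, high-fat 1 and then the other 2 high-fat arrays. That full order held for 1.82% of the probes tested and for 171 of the 529 other probes called lower (32.3%). The exception was FR251112, with no lead of high-fat replicate 1. Before normalization, that lead was seen in only 1 of the 2 spots of FR375498, of FR331566 and of n419646.

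The likeness of 2 profiles was measured as the root mean square distance between centred log2 values, where 0 means the same course. Over the 15 pairs of members the median distance was 0.296. The nearest pair over the 6 arrays was n418283 and n418309 at 0.123, the near copies in sequence, and the farthest n418283 and FR251112 at 0.439. The average course itself had a root mean square size of 1.09, so the members differed among themselves by less than they moved between arrays. Among the probes tested, 21 (0.0326%, or 3.93% of those called lower) lay as near to the average course as the farthest member did (0.271), the 6 included. This distance includes the diet step on which the probes were chosen.

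The shared course was less marked inside a slide or a diet. On the 4 arrays of slide 2 the median distance between members was 0.331 against an average course of 0.575 in size, and 3.69% of the probes tested, or 34.2% of those called lower, were as near as the farthest member. On the 3 normal arrays the distance was 0.186 against 0.587, with 4.14% of the probes tested and 26.4% of those called lower as near. On the 3 high-fat arrays it was 0.321 against 0.331, with 41.7% of the probes tested and 56.8% of those called lower as near, so there the members differed from each other about as much as their average varied. The nearest pair there was n418309 and FR375498 at 0.118, before the near copies at 0.156. This nearness rests on the mean of the 2 spots of FR375498, which ordered the high-fat arrays differently. High-fat replicate 1 exceeded the mean of the other high-fat arrays by 1.20 in n418283, 1.00 in FR331566, 0.87 in n418309, 0.62 in FR375498 and 0.47 in n419646, and in FR251112 the difference was -0.01. It was the highest of its group in these 5 under 75th percentile scaling, normexp correction and the authors' log2 values too, but in 4 of the 6 without normalization.

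**Figure D5:**
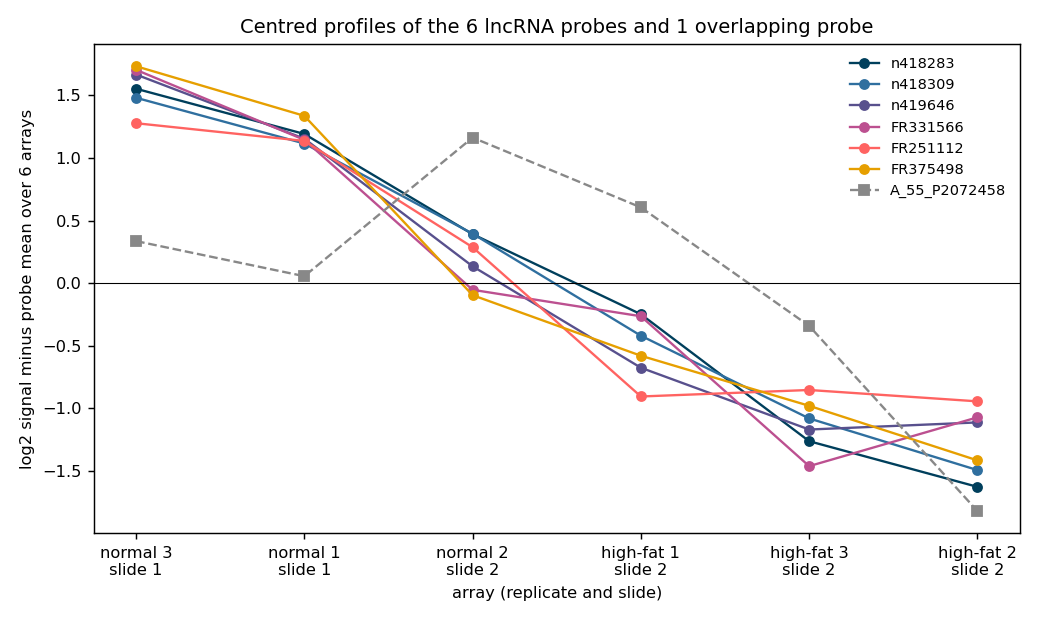
Log2 signal minus the mean over the 6 arrays (vertical axis) of the 6 probes (solid lines) and of A_55_P2072458, the probe that shares 41 bases with FR375498 (dashed line), on each array (horizontal axis, with slide). The 6 lines descend together from normal diet replicate 3 to the high-fat arrays, and the dashed line is highest on normal diet replicate 2.

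The overlapping probe A_55_P2072458 differed from FR375498 in the step between the normal arrays of the 2 slides. It took the same array order as FR375498 within slide 1 and within slide 2. Its values were 5.09, 6.20 and 5.37 on normal diet and 5.64, 3.22 and 4.70 on high-fat diet. The difference was -1.04 (SE 0.60), and the groups overlapped, since high-fat replicate 1 was above normal replicates 1 and 3. Where FR375498 was 1.63 higher on the slide 1 normal arrays than on normal diet replicate 2, A_55_P2072458 was 0.97 lower. Its distance from the average course of the 6 was 0.994. On slide 2 both probes descended from normal diet replicate 2 through high-fat replicates 1 and 3 to high-fat replicate 2. The slide 2 differences were -0.90 in FR375498 and -1.68 in A_55_P2072458. For FR375498 this order is that of the mean of 2 spots that did not share it. On high-fat replicates 1 to 3 the processed signals were 7.01, 11.2 and 8.20 in spot 1. In spot 2 they were 13.3, 4.21 and 9.29.

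The named probes outside the 6 that lay nearest to their average course were a lncRNA probe, FR312820, at a distance of 0.141, Gm10461 at 0.165, Ikzf4 at 0.200, Sdk2 at 0.213 and A_30_P01022319 at 0.225. Ikzf4 encodes a zinc finger transcription factor of the Ikaros family and Sdk2 a cell adhesion molecule of the immunoglobulin superfamily. Their differences between the diets were -1.75, -1.78, -1.57, -2.06 and -1.72, and within slide 2 they were -1.03, -0.77, -0.75, -1.44 and -1.06. Names were at hand only for the probes that the study listed as changed, so other probes as near could not be named.

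From the study's list of most correlated lncRNA and mRNA pairs, 12 mRNAs stood beside a member and had a probe in its listing of changed mRNAs. That list was drawn from these same arrays, so the mRNAs are no independent evidence. Of the 12, 9 were called lower and 3 were higher, with a median difference of -1.06, or -0.66 within slide 2. The mast cell protease Mcpt9 was nearest to the course of the 6, at a distance of 0.268, with a difference of -2.09 overall and -1.39 within slide 2. The adhesion molecule Kirrel3 (-1.04), the focal adhesion protein Tns4 (-1.25), the AT-hook transcription factor Akna (-1.08), the sialomucin Podxl (-1.01) and the myosin light chain kinase Mylk2 (-1.27) were lower by smaller amounts. The 3 higher mRNAs were Gm581 (1.16), Gm16381 (1.11) and Cd200r4 (2.64), the last a member of the CD200 receptor family that was detected on 4 of the 6 arrays. The array order that 5 of the 6 lncRNA probes took recurred in 8 of the 12.

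The study also listed 4 other lncRNA probes beside the 6 among its largest falls. Their differences were -2.73 for A_30_P01032459, -2.05 for n265955, -1.99 for A_30_P01026041 and -1.83 for n294011. Within slide 2 they were -1.88, -0.83, -1.26 and -1.36. Of these, A_30_P01032459 was detected on 4 arrays, so some of its high-fat values were not above background. A_30_P01026041 was detected on 3, which by the detection filter were those of 1 diet. It read 4.10, 3.06 and 4.22 on normal diet and 1.41, 1.66 and 2.33 on high-fat diet. Its high-fat values were thus not detected, and its differences set a detected level against background. Their distances from the average course of the 6 ran from 0.274 to 0.606.

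Base composition was unremarkable in the 6, with 35% to 45% G and C against a median of 43.3% over the probes tested. The run CTCTCT, searched for after the sequences had been read, was in 4 of the 6 probes, of which 2 are the near copies. It was in 2.96% of the probes tested, in 64 of the 535 called lower (12.0%) and in 39 of the 1374 called higher (2.84%). Its reverse complement AGAGAG was in none of the 6, in 2.48% of the probes tested, in 7.10% of those called lower and in 1.53% of those called higher. With the members that hold it left out, 3.15% of the tested probes with CTCTCT were called lower. Of those with neither run, FR331566 and FR251112 included, 0.712% were. With the slide as a block these shares were 0.473% and 0.397%. Over the same probes the median diet difference was -0.084 with CTCTCT and 0.013 with neither run. Within slide 2, which holds 1 normal array, these medians lay farther apart, at -0.188 and 0.006. The array order that most members took held for 7.20% and 1.61%. High-fat replicate 1 exceeded the mean of the other high-fat arrays by a median of 0.18 and -0.01. Median log2 signals were 7.38 and 6.19. The part of this sequence run in the signal was not tested.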

How the data were processed

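The 6 probes and all lists named here were chosen with earlier results of these data known. Total RNA of each aorta was labelled with Cy3 and hybridised to 1 array of a one-colour Agilent design. Per the file headers, the deposited intensity values are processed signals from Agilent Feature Extraction 10.7.1.1, background-subtracted by that software. The authors also deposited log2 values, normalized by quantiles per the study's methods, and these served as an alternative. Here the spots of a probe that were not flagged as outliers were averaged, set to at least 1, taken to log2 and quantile normalized with limma 3.58.1 in R 4.3.3. No probe was saturated or reached the floor. Probes detected on all 3 arrays of a diet were fitted with lmFit and eBayes, called at an unadjusted p of at most 0.05 and 2-fold, and adjusted by Benjamini-Hochberg. Descriptions were computed in Python 3.11.15.

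Alternatives were scaling to the 75th percentile, normexp correction of mean and background signals (offset 50), the authors' values, all spots, no detection filter, slide or replicate number as a block, leaving out each array, and the methods' t-test. The fit was tested on simulated data. With 3 mice per diet the number of arrays limits the precision. The named probes were the 6, the 5 nearest named probes, the 12 mRNAs that the study's list of most correlated pairs set beside a member and the 4 other large falls. Names came from the study's own listings, whose fold changes and p-values were not used.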

Additional observations from a re-analysis of the deposited data

How the results depend on the processing

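All 84 alternative values of the 6 members' differences were below 0. Of them 73 moved by less than the spread between arrays and 11 by more, 6 with normexp correction and 5 with the slide block. The 73 include values that could not move. Dropping the detection filter, blocking by replicate number and the methods' t-test leave each difference of means as it was. Keeping all spots could act only through the normalization, since no member spot was flagged. The median over the members was -1.98, -1.07 with normexp and -1.15 with the slide block, and from -2.38 to -1.62 when 1 array was left out. Members called were 6, but 4 with normexp and 4 with the slide block. Their median profile distance was 0.296, and 0.186 on the normal arrays alone. Over all probes, 535 were called lower. This count was 116 with normexp, 1275 with no detection filter, 265 with the slide block and 329 with the methods' t-test. It ranged from 344 to 1604 when 1 array was left out. The extremes came without normal diet replicate 3 (344) and without replicate 2 of that diet (1604), and 816 were called without high-fat replicate 1. The cause was not tested.

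Replicate numbers did not pair the arrays: same-numbered arrays had correlations of their deviations of -0.261, -0.205 and -0.034, and 0 of 6 arrays correlated best with their own number. With the replicate number as a block 555 probes were called lower, the 6 members among them, and their median difference was -1.98. Pearson's r between members was not run, because the arrays fall into clusters by slide and diet. After Benjamini-Hochberg adjustment the methods' t-test passed 0 probes, of 7175 at an unadjusted p under 0.05, and limma passed 1 of 8669. With 1 normal array on slide 2, the slide-block values rest on that array.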
